A study of Mus musculus with 11 samples.

Results

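The mir-99b, let-7e and mir-125a hairpins lie together in the mouse Spaca6 gene and give 6 mature miRNAs, a 5p and a 3p arm from each. Members were chosen by name, as the rows of the deposited count table for mmu-miR-99b-5p, mmu-miR-99b-3p, mmu-let-7e-5p, mmu-let-7e-3p, mmu-miR-125a-5p and mmu-miR-125a-3p. They were 6 of the table's 2128 rows and 3 of its 1234 hairpins. The study counted small RNAs in 11 libraries of CD8+ T cells from the spleens of mice labelled clean or dirty. From each environment, CD4- CD8+ CD49dlo GFP+ cells were sorted into CD44lo cells (true naive, TN) and CD44hi cells (virtual memory, VM), which the protocol calls stamped TN and stamped VM. Clean_TN had 2 libraries, numbered replicates 2 and 3, while there were 3 of Clean_VM, 3 of Dirty_TN and 3 of Dirty_VM. All groups shared the CD8a bead selection, the GFP+ gate and the CD49dlo gate, so the subsets differed by the CD44 gate. The sources used here do not state what dirty, stamped and GFP stand for, nor the strain, age or sex of the mice. No label says that the libraries came from separate animals, so p-values measure the spread between these libraries.

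A miRNA hairpin is cut from a longer transcript by Drosha and Dicer, and an arm of the duplex is loaded into an Argonaute protein, where bases 2 to 8 (the seed) pair with target mRNAs. Hairpins of a cluster are usually made from a common primary transcript, but each mature arm is also shaped by its own processing and decay. miR-99 and miR-100 are known to repress mTOR pathway genes, miR-125 family members act in blood cell survival and T cell differentiation, and let-7 miRNAs are abundant in resting T cells and decline on activation. Virtual memory cells are CD8+ T cells that take on a memory phenotype without having met foreign antigen.

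In the GENCODE M21 annotation of GRCm38/mm10, the 3 hairpins stand on the plus strand of chromosome 17 within 692 bases. Mir99b spans chr17:17830188-17830257, Mirlet7e chr17:17830352-17830444 and Mir125a chr17:17830812-17830879, with 94 and 367 bases between neighbours. Spaca6, a sperm protein gene, runs over them on the same strand at chr17:17827158-17843009. Mir99b and Mirlet7e each lay inside 2 of the 16 annotated Spaca6 transcripts and overlapped no exon of them. Mir125a lay inside 3 of these transcripts, and an exon of 1 annotated Spaca6 transcript covered 47 of the hairpin's bases.

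The mature sequences of the cluster come first, because the seeds set which other miRNAs they can be compared with. They are from RefSeq (GRCm38.p6), where all 6 members matched by name, and capitals mark the seed.
mmu-miR-99b-5p: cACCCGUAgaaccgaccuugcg
mmu-miR-99b-3p: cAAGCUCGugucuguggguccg
mmu-let-7e-5p: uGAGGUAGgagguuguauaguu
mmu-let-7e-3p: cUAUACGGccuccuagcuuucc
mmu-miR-125a-5p: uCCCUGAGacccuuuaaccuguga
mmu-miR-125a-3p: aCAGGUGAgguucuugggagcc
The 3 abundant arms carry 3 different seeds, so the cluster feeds 3 seed families at once. The relatives below share those seeds and are shown because their counts give the background for each member.
mmu-miR-99a-5p: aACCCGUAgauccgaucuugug
mmu-miR-100-5p: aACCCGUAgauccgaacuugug
mmu-let-7a-5p: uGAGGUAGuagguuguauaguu
mmu-miR-125b-5p: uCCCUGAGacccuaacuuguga
mmu-miR-351-5p: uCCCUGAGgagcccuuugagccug

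With positions counted from 1 at the 5′ end and the relative's base written before the member's, miR-99b-5p differs from miR-99a-5p by A1C, U11A, U16C and U21C. From miR-100-5p it differs by A1C, U11A, A16C and U21C. let-7e-5p differs from let-7a-5p by U9G alone, just after the seed. miR-125a-5p is 24 bases long and shares its first 13 with the 22-base miR-125b-5p, and its first 8 with miR-351-5p. In the RefSeq table of 1679 mouse mature miRNAs, the seed of miR-99b-5p was shared by 2 others, that of let-7e-5p by 10 and that of miR-125a-5p by 4. The seed of miR-99b-3p was shared by 1 other, miR-99a-3p, and those of let-7e-3p and miR-125a-3p by 0.

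Values are estimated counts that the authors deposited, given below in counts-per-million (CPM), with library sizes scaled by TMM. Library totals ran from 2592701 to 16138163, a 6.22-fold range, and 5 libraries were shallow, with totals under 5000000 (Clean_TN replicate 3, Clean_VM replicate 1, Dirty_TN replicate 2, Dirty_VM replicates 1 and 2). A count of 3, taken as the floor, was worth 0.180 to 1.23 CPM, and floors cover counting error only. The summed level of 4 lymphocyte miRNAs was 137200 to 145500 CPM in Clean_TN, 83600 to 110200 in Clean_VM, 73920 to 140500 in Dirty_TN and 86400 to 101400 in Dirty_VM, so the subsets did not overlap in clean mice. Most of that sum was miR-150-5p (86675 to 130830 CPM as group means), and miR-142a-3p overlapped between the subsets in clean mice. On average over the environments, 1 of these 4 was lower in VM cells (miR-142a-5p, -0.90, adjusted p = 0.0128), 3 had an unadjusted p under 0.05, and the median log2 change of the 4 was -0.41. Of all 545 rows tested in edgeR, 12.3% were lower, 11.4% were higher and 35% had an unadjusted p under 0.05. Of 14 miRNAs typical of other cells, 12 were tested, and 3 rose in VM cells on average over the environments (miR-126a-3p by 0.87, miR-143-3p by 0.80 and miR-122-5p by 0.76 on the log2 scale). None of the 14 was at 0 in every library. Summed levels were 0.268 to 3.61 CPM for the 2 myeloid and 5.64 to 29.8 CPM for the 3 erythroid miRNAs over all libraries. The 2 endothelial miRNAs summed to 15.3 to 29.7 CPM in TN and 21.7 to 53.0 CPM in VM libraries. The 4 stromal miRNAs summed to 39.8 to 72.0 against 62.8 to 108.9 CPM, and the 3 of liver and muscle to 860.2 to 1835 against 1223 to 2754 CPM. Most of these sums was miR-143-3p (34.5 to 74.2 CPM as group means) and miR-122-5p (961 to 2176 CPM). Among the rest, miR-144-5p, miR-126a-5p, miR-223-3p and miR-451a changed by 1.66, 1.04, 0.76 and 0.27 on average over the environments. miR-145a-5p, miR-199a-3p and miR-133a-3p changed by 0.35, 0.26 and 0.38. miR-214-3p and miR-1a-3p changed by -0.27 and -0.48, and none of the rest passed. Over the 12 tested, the median log2 change was 0.57, against 0.09 over all rows, and 4 had an unadjusted p under 0.05 in edgeR. The part of the miRNAs typical of other cells in the results below was not tested.

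Over all 11 libraries the 6 members together made up 0.0329% to 0.112% of the counts. By the mean of the 4 group means, let-7e-5p stood at rank 106 of 2008 rows with 257 CPM, miR-125a-5p at rank 119 with 180 CPM and miR-99b-5p at rank 129 with 143 CPM. The 3p arms were far scarcer, with miR-125a-3p at rank 390 (2.45 CPM), miR-99b-3p at rank 465 (1.15 CPM) and let-7e-3p at rank 613 (0.351 CPM). The cluster sum was 649.4 ± 55.9 CPM in Clean_TN (SD, n = 2) and 363.5 ± 17.8 CPM in Clean_VM (n = 3). It was 968 ± 298 CPM in Dirty_TN and 354 ± 60.3 CPM in Dirty_VM (n = 3 each).

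miR-125a-5p, the arm with the miR-125 seed, was the member that differed most between the subsets. Its level was 278 and 187 CPM in the Clean_TN libraries (replicates 2 and 3) and 63.6, 70.1 and 55.5 CPM in Clean_VM (replicates 1 to 3). In Dirty_TN it was 474, 349 and 227 CPM, and in Dirty_VM 57.1, 81.8 and 80.2 CPM. The 5 TN libraries all lay above the 6 VM libraries, and no TN library came within a doubling of any VM library. Averaged over clean and dirty mice, miR-125a-5p fell by 2.07 ± 0.20 on the log2 scale from TN to VM cells (SE, 95% interval -2.51 to -1.63, adjusted p = 7.83e-06), which is 4.20-fold. That was the 8th lowest log2 change of the 545 rows tested. It had 192 to 3687 estimated counts per library. Within the 5 shallow libraries the log2 change was -2.07 and within the 6 deep ones -2.18, in fits that leave some groups without a replicate. In bulk RNA, fewer cells making a miRNA and less of it per cell cannot be told apart.

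miR-99b-5p, the arm with the miR-99 and miR-100 seed, was also higher in TN than in VM cells. Its level was 192 and 175 CPM in Clean_TN against 58.8, 87.8 and 70.8 CPM in Clean_VM. In Dirty_TN it was 259, 329 and 160.1 CPM, against 58.3, 66.6 and 73.8 CPM in Dirty_VM. Again every TN library was above every VM library, with the lowest TN value (a Dirty_TN library) well over the highest VM value (a Clean_VM library). The averaged log2 change from TN to VM was -1.62 ± 0.19 (95% interval -2.03 to -1.21, adjusted p = 3.82e-05), a 3.08-fold fall and the 16th lowest change. It was -2.11 within the shallow libraries and -1.44 within the deep ones, where again some groups had no replicate.

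let-7e-5p, whose hairpin sits between the other two, did not separate the subsets in this way. It stood at 213 and 244 CPM in Clean_TN and at 255, 206 and 216 CPM in Clean_VM. The Dirty_TN libraries held 379, 478 and 231 CPM and the Dirty_VM libraries 193, 272 and 173 CPM. TN and VM libraries overlapped in both environments, and Dirty_TN replicates 1 and 2 stood above all the others. The averaged log2 change was -0.40 ± 0.19 (95% interval -0.81 to 0.02, adjusted p = 0.163), so no difference passed the test, and the interval takes in a fall of up to 0.81. This value rested on Dirty_TN replicate 3: without it the change was -0.55 (adjusted p = 0.0173).

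**Figure D1:**
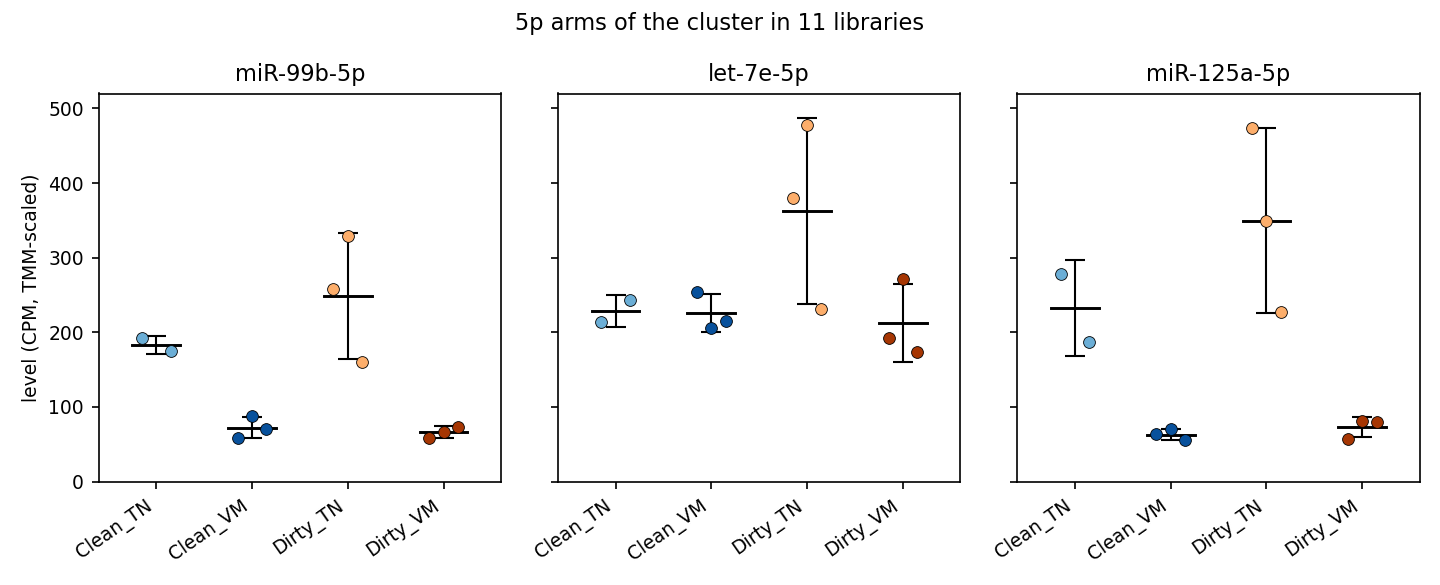
Levels of miR-99b-5p, let-7e-5p and miR-125a-5p in CPM (vertical axis, linear from 0) in each library (points) of the 4 groups, with group means (bars) and SD (whiskers; n = 2 for Clean_TN, 3 otherwise). For miR-99b-5p the TN libraries sit between 160.1 and 329 CPM and the VM libraries between 58.3 and 87.8 CPM, and for miR-125a-5p between 187 and 474 against 55.5 and 81.8 CPM, while those of let-7e-5p overlap.

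The order of the group levels of miR-125a-5p ran from Dirty_TN (350 ± 123 CPM, SD) through Clean_TN (233 ± 64.8) and Dirty_VM (73.0 ± 13.8) to Clean_VM (63.1 ± 7.34). That of miR-99b-5p ran from Dirty_TN (249 ± 84.6 CPM) and Clean_TN (183 ± 12.3) to Clean_VM (72.5 ± 14.6) and Dirty_VM (66.2 ± 7.73). In both, the neighbours within a subset overlapped and the step between subsets did not. For let-7e-5p the groups stood at 363 ± 124 CPM in Dirty_TN, 229 ± 21.4 in Clean_TN, 226 ± 25.6 in Clean_VM and 213 ± 52.0 in Dirty_VM, and all neighbouring groups overlapped.

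The 3p arms are the strands usually discarded from these duplexes. miR-125a-3p was counted 25 and 13 times in Clean_TN and 7, 5 and 15 times in Clean_VM. In Dirty_TN it had 35, 17 and 52 counts, and in Dirty_VM 0, 2 and 30. As levels, its TN libraries held 2.28 to 4.90 CPM and its VM libraries 0 to 1.88 CPM, without overlap. It fell by 1.69 ± 0.53 on the log2 scale averaged over the environments (95% interval -2.84 to -0.54, adjusted p = 0.0364). The call did not hold within the shallow libraries (-2.47, adjusted p = 0.112) or the deep ones (-1.28, adjusted p = 0.238). It was also lost without Clean_TN replicate 2 (adjusted p = 0.0545), Clean_TN replicate 3 (0.0958) or Dirty_VM replicate 2 (0.0557).

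miR-99b-3p had 16 and 2 counts in Clean_TN, 2, 14 and 8 in Clean_VM, 16, 4 and 23 in Dirty_TN and 2, 4 and 12 in Dirty_VM. Its levels, 0.602 to 2.06 CPM in TN and 0.537 to 1.64 CPM in VM libraries, overlapped, and its averaged change of -0.56 ± 0.50 did not pass (95% interval -1.63 to 0.51, adjusted p = 0.433). let-7e-3p reached 30 counts over all libraries, of which 14 came from Clean_TN replicate 2. It had no count in Clean_VM replicate 2, Dirty_TN replicate 1 and Dirty_VM replicate 2, did not pass the filter on low counts and was not tested.

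**Figure D2:**
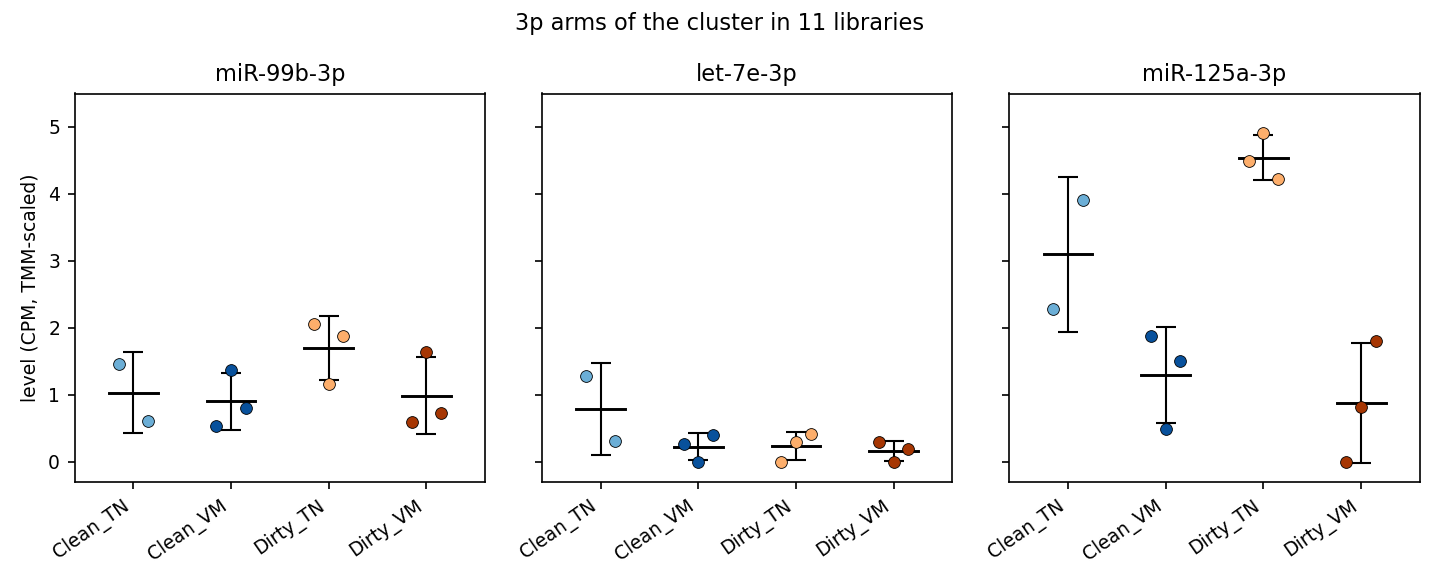
Levels of the 3p arms in CPM (vertical axis, linear) in each library (points), with group means (bars) and SD (whiskers). miR-125a-3p lies between 2.28 and 4.90 CPM in the TN libraries and between 0 and 1.88 CPM in the VM libraries, while the other 3p arms stay at or below 2.06 CPM and overlap between subsets.

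In all, 5 of the 6 members were tested, and in the averaged comparison 3 of these 5 were lower in VM cells and 0 higher. Of all 545 rows tested, 23.7% passed in either direction, 12.3% lower and 11.4% higher (edgeR quasi-likelihood test, adjusted p under 0.05). The median log2 change was -1.62 over the 5 tested members and 0.09 over all rows. The libraries of 3 members (miR-99b-5p, miR-125a-5p and miR-125a-3p) did not overlap and were lower in VM cells in both environments, which held for 9.36% of all rows tested.

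Within clean mice, 2 of the 5 tested members were lower in VM cells, where 7.71% of all rows tested were lower, 9.72% higher and 17.4% differed in either direction. Without Clean_TN replicate 2 the last share was 6.04%, without Clean_TN replicate 3 5.4% and without Clean_VM replicate 3 12.2%, and 2 members were lower each time. The log2 change was -1.89 ± 0.30 for miR-125a-5p (adjusted p = 0.000979) and -1.34 ± 0.28 for miR-99b-5p (adjusted p = 0.00634). let-7e-5p changed by -0.02 ± 0.29 with an interval of -0.64 to 0.60 (adjusted p = 0.958). miR-125a-3p (-1.28 ± 0.78, adjusted p = 0.278) and miR-99b-3p (-0.23 ± 0.73, adjusted p = 0.849) did not pass.

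Within dirty mice the same arms, miR-125a-5p and miR-99b-5p, made up the 2 of 5 tested members that were lower, beside 5.87% of all rows lower, 6.24% higher and 12.1% in either direction. Their log2 changes were -2.26 ± 0.28 (adjusted p = 0.00016) and -1.91 ± 0.26 (adjusted p = 0.000265). let-7e-5p stood at -0.77 ± 0.26 with an interval of -1.33 to -0.21, unadjusted p = 0.0108 and adjusted p = 0.0788 in edgeR. That value passed with DESeq2 (adjusted p = 0.0268), without a filter on low counts (0.0188), with a filter of 10 CPM (0.035), with the depth class as a term (0.0215), without Dirty_TN replicate 3 (0.00629) and without Dirty_VM replicate 2 (0.0312). miR-125a-3p (-2.10 ± 0.72, adjusted p = 0.0846) passed with DESeq2 (0.037), without a filter (0.0178) and without Dirty_VM replicate 3 (0.0436). miR-99b-3p (-0.90 ± 0.68, adjusted p = 0.456) did not pass. With the 6 deep libraries alone, miR-99b-5p no longer passed in clean (-1.32, adjusted p = 0.0768) or dirty mice (-1.55, adjusted p = 0.144).

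**Figure D3:**
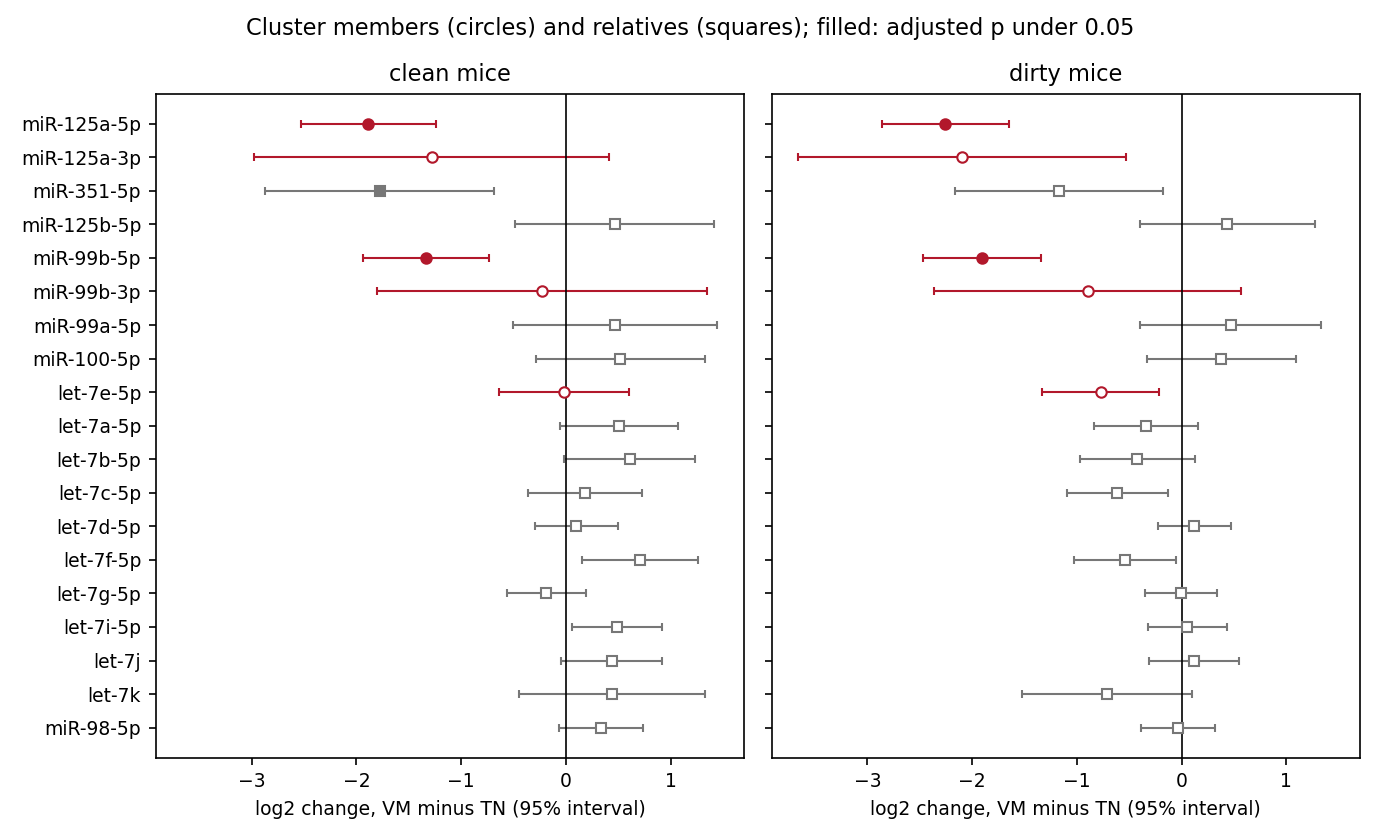
Log2 change from TN to VM cells (horizontal axis, with 95% intervals) in clean mice (left) and dirty mice (right) for the tested members (red circles) and their listed relatives (grey squares), where filled symbols passed an adjusted p of 0.05. miR-125a-5p and miR-99b-5p lie between -2.26 and -1.34 in both panels and are filled, and let-7e-5p is at -0.02 in clean and -0.77 in dirty mice.

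Because the hairpins stand side by side, the arms were also set against each other within each library, where scaling between libraries plays no part. The tests of VM against TN cells were exact permutations of subset labels within each environment. Those of dirty against clean mice permuted environment labels within each subset. All were two-sided and adjusted over 18 tests of 9 ratios and shares, with 0.005 as the smallest p that they can give. The log2 ratio of miR-125a-5p to let-7e-5p counts was 0.38 and -0.38 in Clean_TN, and 0.32, -0.45 and -0.03 in Dirty_TN. In Clean_VM it was -1.999, -1.56 and -1.96, and in Dirty_VM -1.75, -1.73 and -1.11. The TN libraries lay on both sides of equal counts, and every VM library had more let-7e-5p than miR-125a-5p. The log2 difference between VM and TN cells was -1.66 (-1.84 in clean and -1.48 in dirty mice, exact permutation p = 0.005, adjusted p = 0.0225). It was -1.45 within the shallow and -1.70 within the deep libraries.

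The log2 ratio of miR-99b-5p to let-7e-5p was -0.15 and -0.48 in Clean_TN and -0.55, -0.54 and -0.53 in Dirty_TN. It was -2.11, -1.23 and -1.60 in Clean_VM and -1.72, -2.02 and -1.23 in Dirty_VM. All TN libraries again lay above all VM libraries. The difference was -1.23 (-1.33 in clean and -1.12 in dirty mice, exact permutation p = 0.005, adjusted p = 0.0225), with -1.48 within the shallow and -0.98 within the deep libraries. Between the outer arms, miR-125a-5p over miR-99b-5p, the difference was smaller at -0.43 and did not pass after adjustment (-0.50 in clean and -0.36 in dirty mice, exact permutation p = 0.05, adjusted p = 0.129). It was 0.03 within the shallow and -0.72 within the deep libraries, so the depth classes did not share a direction.

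**Figure D4:**
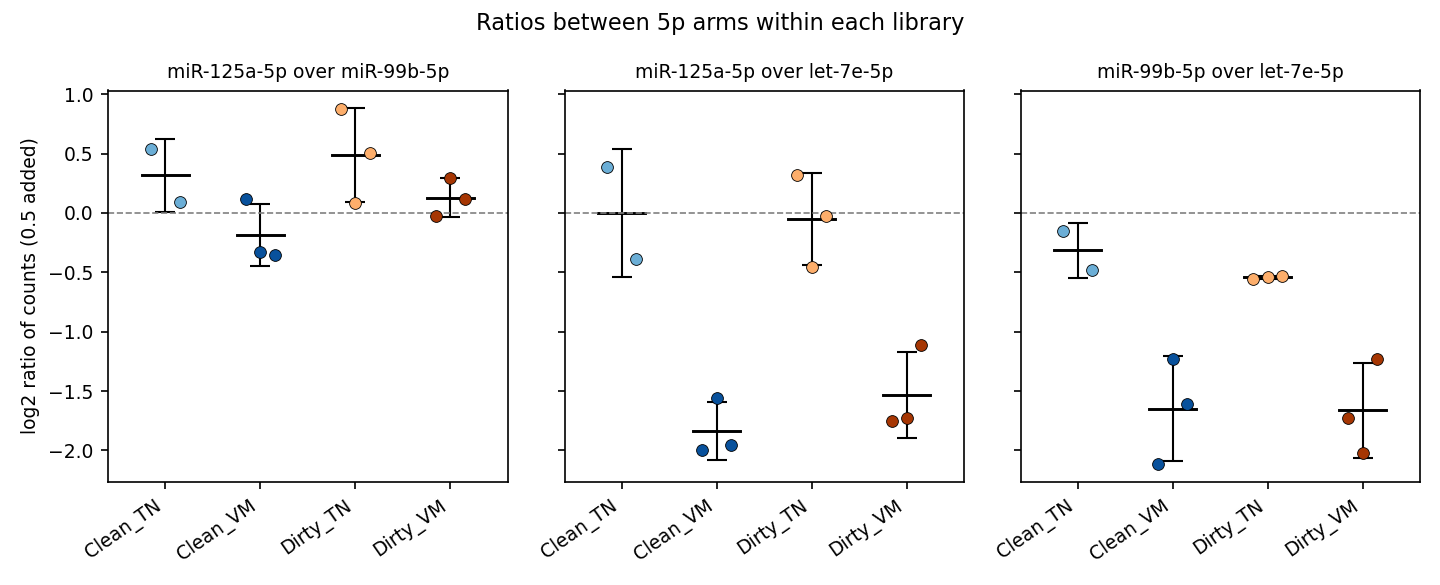
Log2 ratios of estimated counts (0.5 added) between pairs of 5p arms in each library (points), with group means (bars) and SD (whiskers) and a dashed line at equal counts. Both ratios to let-7e-5p are lower in every VM library than in every TN library, and miR-125a-5p over miR-99b-5p overlaps between subsets.

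As shares of the cluster's counts, let-7e-5p made up 35.5% ± 6.34 in Clean_TN (SD, n = 2) and 62.0% ± 5.37 in Clean_VM (n = 3), 37.3% ± 3.62 in Dirty_TN and 59.7% ± 6.31 in Dirty_VM. The share of miR-125a-5p was 35.5% in Clean_TN, 17.3% in Clean_VM, 36.3% in Dirty_TN and 20.7% in Dirty_VM. That of miR-99b-5p was 28.3%, 20.01%, 25.7% and 19.0% in the same order. The cluster's counts were thus spread over 3 arms in TN cells and led by let-7e-5p in VM cells. How far reads of the far more abundant let-7a-5p enter the let-7e-5p counts behind these shares and ratios was not tested.

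The ratio of a 5p arm to its own 3p arm compares strands of 1 hairpin. For mir-99b the groups' mean log2 ratios were 7.43 ± 0.61 in Clean_TN, 6.26 ± 0.27 in Clean_VM, 7.10 ± 0.81 in Dirty_TN and 6.03 ± 0.76 in Dirty_VM. The difference between VM and TN cells was -1.12 (exact permutation p = 0.01, adjusted p = 0.03), but it was -1.83 within the shallow libraries and -0.44 within the deep ones, with 2 to 23 counts of the 3p arm behind each value. For mir-125a the difference was 0.06 (exact permutation p = 0.94), so the arms' change was not told apart at 0 to 52 counts of miR-125a-3p per library. For let-7e it was 0.47 (exact permutation p = 0.68, adjusted p = 0.816), at 0 to 14 counts of let-7e-3p.

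The relatives encoded elsewhere showed what else fed each seed family. Of 18 listed relatives 14 were tested, and averaged over the environments 1 was lower in VM cells and 0 higher. Of all rows tested, 12.3% were lower and 11.4% higher. The median change was 0.10 over the tested relatives against 0.09 over all rows. miR-351-5p, an X-linked miRNA with the miR-125 seed, was the relative that fell, with a log2 change of -1.48 ± 0.34 and an adjusted p of 0.00733. Its levels were 11.7 ± 6.35 CPM in Clean_TN, 3.33 ± 2.15 in Clean_VM, 17.1 ± 6.84 in Dirty_TN and 7.50 ± 1.98 in Dirty_VM (SD). Within clean mice it passed (-1.78, adjusted p = 0.0305), and within dirty mice it did not (-1.17, adjusted p = 0.127).

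miR-125b-5p, the closest relative of miR-125a-5p, changed by 0.45 ± 0.29 (95% interval -0.18 to 1.09, adjusted p = 0.291), from 21.9 CPM in Clean_TN to 30.1 in Clean_VM and from 24.6 in Dirty_TN to 33.3 in Dirty_VM. miR-99a-5p changed by 0.47 ± 0.30 (-0.18 to 1.12, adjusted p = 0.29) and miR-100-5p by 0.45 ± 0.25 (-0.09 to 0.99, adjusted p = 0.221). Levels of miR-99a-5p were 57.4 CPM in Clean_TN, 79.5 in Clean_VM, 58.8 in Dirty_TN and 81.4 in Dirty_VM, and those of miR-100-5p were 37.7, 53.9, 39.4 and 51.1 CPM. None of these 3 passed the test in either direction. The upper bounds of the intervals of miR-99b-5p and miR-125a-5p lay below the lower bounds of all 3.

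The cluster's share of the counts of listed relatives was therefore compared within libraries. The sets were not whole seed families, as miR-351-5p, miR-6367 and miR-6394 also carry the miR-125a-5p seed. miR-125b-5p has 2 hairpin rows, and only the more abundant row was used. If reads were divided between these rows, the percentages overstate the share of miR-125a-5p. The share was not recomputed with the rows summed. miR-125a-5p made up 92.1% and 90.4% of the miR-125a-5p and miR-125b-5p counts in Clean_TN, and 95.5%, 95.2% and 87.0% in Dirty_TN. In Clean_VM it made up 80.9%, 62.8% and 62.1%, and in Dirty_VM 57.1%, 81.6% and 67.5%. No VM library reached the lowest TN library. The share differed by -23.3 percentage points (-22.7 in clean and -23.9 in dirty mice, exact permutation p = 0.01, adjusted p = 0.03), with -17.7 within the shallow and -26.7 within the deep libraries.

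miR-99b-5p made up 63.8% and 68.3% of the miR-99a-5p, miR-99b-5p and miR-100-5p counts in Clean_TN and 76.0%, 81.7% and 53.6% in Dirty_TN. Its share was 43.6%, 32.7% and 33.1% in Clean_VM and 26.3%, 47.1% and 31.6% in Dirty_VM. The member held most of these counts in every TN library and less than its relatives together in every VM library. The difference was -32.5 points (-29.6 in clean and -35.4 in dirty mice, exact permutation p = 0.005, adjusted p = 0.0225), and it was -34.8 within the shallow and -32.0 within the deep libraries.

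let-7e-5p was a trace of the let-7 counts. The set took in let-7j, which was not among the listed seed partners, and left out miR-1961, which was. let-7a-5p, let-7c-5p and let-7f-5p have 2 hairpin rows each, and only the more abundant row was used, here and below. If reads were divided between such rows, the percentages are too high. It held 0.0668% and 0.0717% of the let-7 5p and miR-98-5p counts in Clean_TN and 0.0721%, 0.117% and 0.0719% in Dirty_TN. In Clean_VM it held 0.0607%, 0.0546% and 0.0548%, and in Dirty_VM 0.0573%, 0.0680% and 0.0505%. The ranges of the subsets did not overlap within an environment, and the difference was -0.0205 points (exact permutation p = 0.005, adjusted p = 0.0225), -0.0327 within the shallow and -0.0168 within the deep libraries. The call was lost without any 1 of 7 libraries (each of the Clean_VM and Dirty_VM libraries and Dirty_TN replicate 2), with an adjusted exact permutation p of 0.06 to 0.12. The smallest difference, -0.0130 points, was without Dirty_TN replicate 2, the highest library. let-7a-5p, which differs from let-7e-5p by the single base U9G, stood at 29404 to 43081 CPM as group means, and let-7e-5p counts were 0.50% to 1.09% of let-7a-5p counts. The estimated counts of let-7e-5p were not whole numbers (809.03 to 2951.67 in TN, 648.2 to 2887.33 in VM libraries), and the counting behind such values is not stated. How far miscalled let-7a-5p reads enter the let-7e-5p values was not tested, and values of let-7e-5p are uncertain to that extent.

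**Figure D5:**
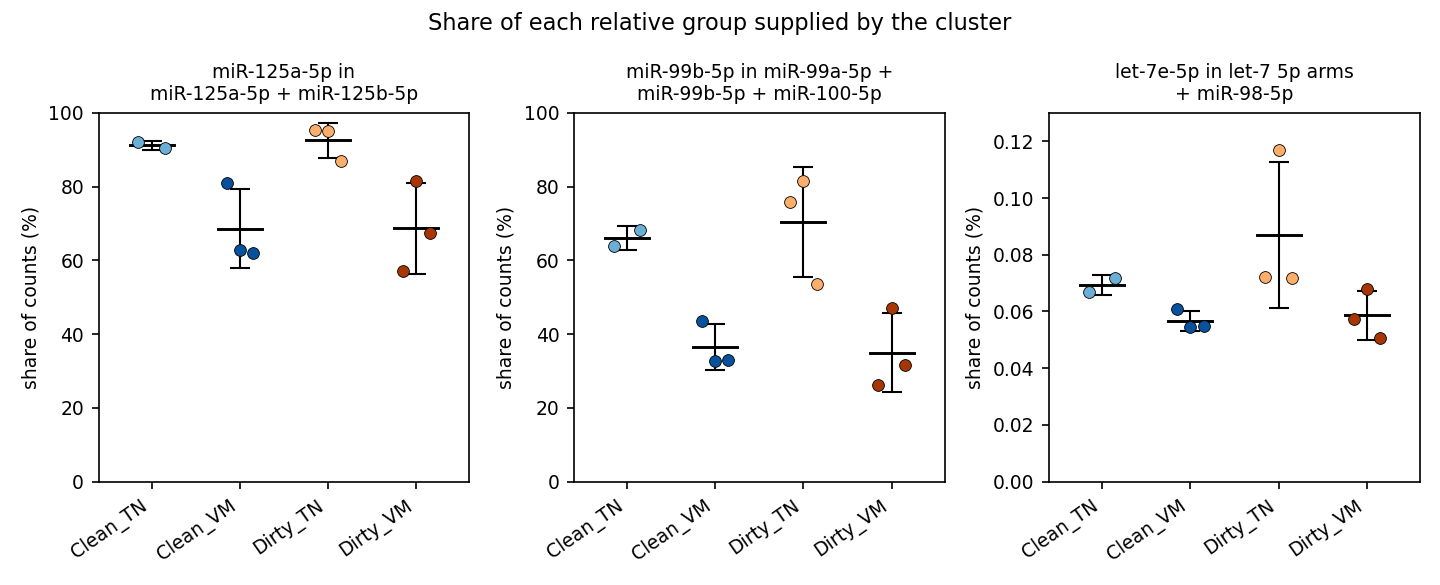
Share of each set of related counts supplied by the cluster's arm, in percent (vertical axes from 0, each panel on its own scale), for each library (points) with group means (bars) and SD (whiskers). miR-125a-5p holds 87.0% to 95.5% in TN and 57.1% to 81.6% in VM libraries, miR-99b-5p 53.6% to 81.7% against 26.3% to 47.1%, and let-7e-5p at most 0.117%. Relatives with several hairpin rows enter by their most abundant row.

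Dirty and clean mice were compared for each subset and averaged over both. None of the 5 tested members passed in any of these comparisons, and 0% of all rows passed by edgeR in each. That background rested on Dirty_TN replicate 3: without it 5.56% of rows passed in TN and 5.16% in VM cells, with 0 members among them. DESeq2 called 0.183% of rows averaged, 0.55% in TN and 4.04% in VM cells. At an unadjusted p under 0.05 there were 0 members in the averaged comparison, 1 in TN cells (let-7e-5p) and 0 in VM cells, against 5.14%, 6.97% and 14.9% of all rows, and DESeq2 and limma-voom called 0 members. In TN cells let-7e-5p stood at 0.67 ± 0.29 (unadjusted p = 0.0412, adjusted p = 0.559), miR-125a-5p at 0.59 ± 0.30 (adjusted p = 0.606) and miR-99b-5p at 0.44 ± 0.28. With each library left out in turn, these ran from 0.31 to 0.68, from 0.17 to 0.81 and from 0.0850 to 0.457. In VM cells the log2 differences were -0.09 ± 0.26 for let-7e-5p (0.01 with library totals alone), 0.21 ± 0.27 for miR-125a-5p and -0.13 ± 0.25 for miR-99b-5p. Among the groups, Dirty_TN had the widest spread for each abundant arm, with an SD of 34.0% of the mean for miR-99b-5p, 34.3% for let-7e-5p and 35.3% for miR-125a-5p.

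The difference between VM and TN cells was itself compared between environments. The interaction was -0.37 ± 0.40 for miR-125a-5p (adjusted p = 0.689), -0.57 ± 0.38 for miR-99b-5p (adjusted p = 0.433) and -0.75 ± 0.39 for let-7e-5p (unadjusted p = 0.0756, adjusted p = 0.342). None of the 5 tested members passed, beside 0% of all rows, and 0 members but 17.1% of all rows had an unadjusted p under 0.05. With DESeq2, 7.52% of all rows passed, and in edgeR without Dirty_TN replicate 3 14.5% did, with 0 members in either. The ratios and shares did not differ between dirty and clean mice past the threshold either (adjusted exact permutation p from 0.484 to 0.94).

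Across the 11 libraries, the log2 levels of miR-99b-5p and miR-125a-5p had a Pearson r of 0.96, and 0.66 once group means were removed. With let-7e-5p, r was 0.69 for miR-99b-5p and 0.66 for miR-125a-5p, and 0.54 and 0.47 with group means removed. Outside the cluster, let-7a-5p had an r of 0.64 with let-7e-5p before group means were removed, close to that of those arms. These correlations are descriptions over 11 libraries in 4 groups, which share the subset difference and the depth of each library. By the same measure, and with the cluster's own members left out, the rows most like miR-125a-5p among 260 with a mean of 10 CPM or more were miR-181a-5p (r = 0.958), miR-181b-5p on its 2 hairpin rows (0.958 and 0.954), miR-132-3p (0.939) and miR-181a-2-3p (0.921). Over the 4 group means their r was 0.996, 0.993, 0.992, 0.971 and 0.932. miR-181a-5p stood at 1590 ± 90.8 CPM in Clean_TN, 539 ± 57.7 in Clean_VM, 1958 ± 449.5 in Dirty_TN and 556 ± 83.7 in Dirty_VM, the same order of subsets at a higher level. For the relatives, the r with miR-99b-5p was -0.43 with miR-99a-5p, -0.38 with miR-100-5p, -0.34 with miR-125b-5p, 0.73 with miR-351-5p and 0.14 with let-7a-5p. The r with let-7e-5p was -0.78 for miR-99a-5p, -0.65 for miR-100-5p, -0.67 for miR-125b-5p and 0.35 for miR-351-5p.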

How the data were processed

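Small RNA libraries were made from 10000 sorted cells each by NEBNext Small RNA preparation, with an input of 60 to 100 ng and inserts of 18 to 35 bp, and sort purity was over 95%, all per the labels' protocols. The values are expected counts (estimated counts per mature miRNA and hairpin) as the authors deposited them, and many are fractional. The genome build was mm10 per the submitters' processing notes. The sources used here do not name the aligner, counter or annotation release. Reads that match several hairpins may be shared between rows, which bears most on let-7e-5p.

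Of 2128 rows, 120 repeats with the same name and values were dropped, leaving 2008. Estimated counts were rounded and fitted in edgeR 4.0.16 (R 4.3.3) with TMM scaling, filterByExpr on the 4 groups (545 rows kept, with 99.99% of the counts), 1 mean per group over all 11 libraries and the robust quasi-likelihood test. All tests were two-sided, with Benjamini-Hochberg adjustment over the 545 rows and a threshold of 0.05. SEs were worked back from the F statistic (size of the log2 change over the root of F). Ratios (0.5 added to each count) and shares were tested by exact stratified permutation, adjusted over 18 tests. The edgeR step was also run on simulated counts, for the averaged VM against TN comparison only and with the same dispersion in every row. The other comparisons and the permutation tests were not simulated.

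The members and lists were chosen with earlier results of these data known. Named miRNAs were the 6 members, listed relatives that passed or share a seed, and the 5 rows, members left out, most correlated with miR-125a-5p. A miRNA on several hairpin rows is given by its most abundant row, since such rows may share reads. Alternatives used DESeq2 1.42.0, limma-voom (limma 3.58.1), other scalings, filters, samples and summed rows, a replicate block, depth class, and each library left out.

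Whether the replicate numbers pair the libraries was not settled. Deviations from group means had a median r of -0.216 over 15 pairs with the same number (-0.557 to 0.396). Of 11 libraries, 1 correlated best with its own number. These pairs also set clean against dirty libraries. Between TN and VM libraries of the same environment, r was 0.245 and -0.237 in clean and -0.478, 0.215 and 0.396 in dirty mice. The 2 Clean_TN libraries deviate from their mean in mirror image, so the check cannot exclude pairing. No 2 libraries held identical values.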

Additional observations from a re-analysis of the deposited data

How the results depend on the processing

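In VM against TN cells, miR-125a-5p kept its direction in all 3 comparisons under every alternative run, from -2.28 to -1.92 when averaged. It kept its call wherever every group had replicates. miR-99b-5p did the same when averaged (-2.11 to -1.44), and its call was lost in each environment with the deep libraries alone. The number of members lower in VM cells in dirty mice was 4 with DESeq2, 4 with no filter and 1 with the deep libraries, beside 8.44%, 2.92% and 0.867% of all rows lower. In clean mice it was 1 with the deep libraries, beside 2.6% of all rows. These deep fits had fewer samples. With each library outside Clean_TN left out in turn, the number of members lower was 2 to 4 averaged, 2 in clean and 2 to 3 in dirty mice. Beside these, 10.9% to 15.5% of all rows were lower averaged, 6.59% to 12.7% in clean and 3.58% to 8.53% in dirty mice. Library totals alone moved the median change of all rows in clean mice from 0.08 to -0.13, a shift that lowered each member's value there. The replicate block, with numbers not shown to pair the libraries, changed no call of a member. It moved the averaged value of miR-125a-5p to -2.06 and that of miR-99b-5p to -1.58 and lowered the rows that passed from 129 to 106 averaged, from 95 to 56 in clean and from 66 to 53 in dirty mice. Without Dirty_VM replicate 3, 42 rows passed in dirty mice. The block gave 2 of 5 members lower in clean mice, and the ratio of miR-125a-5p to let-7e-5p was -1.62 under it.

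Ratios that moved, VM against TN, were miR-125a-5p over miR-99b-5p (0.0324 in shallow libraries), miR-99b-5p over miR-99b-3p (-1.83 in shallow and -0.44 in deep) and miR-125a-5p over miR-125a-3p (-0.17 with 1 added, a reversed sign of an uncalled value). In dirty against clean mice miR-125a-5p over miR-125a-3p was -0.67 in deep libraries. The cause was not tested. With each library left out, the 6 ratios and shares that passed kept their direction. They spanned -1.85 to -1.47 (miR-125a-5p over let-7e-5p), -1.33 to -1.11 (miR-99b-5p over let-7e-5p), -1.33 to -0.90 (miR-99b-5p over its 3p arm), -26.5 to -20.4 points (miR-125a-5p share), -36.7 to -29.7 points (miR-99b-5p share) and -0.0243 to -0.0130 points (let-7e-5p share). Their adjusted exact permutation p then reached 0.06 to 0.12, past the threshold in 38 of these refits, where fewer assignments allow a smallest p of 0.00833 to 0.0125. Both ratios to let-7e-5p and the miR-99b-5p share were lost without any Clean_VM library, Dirty_TN replicate 2 or Dirty_VM replicate 1. The miR-125a-5p share was lost without any Clean_VM or Dirty_TN library or Dirty_VM replicate 1, and miR-99b-5p over its 3p arm without any library but Dirty_TN replicate 3 and Dirty_VM replicate 3.

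Values that changed sign had not passed the test. They were let-7e-5p in clean mice with a depth term (0.0416), miR-125a-3p in dirty against clean averaged in shallow libraries (-1.05), and miR-99b-5p (-0.10) and miR-99b-3p (-0.18) there in deep libraries. In dirty against clean VM cells they were miR-125a-3p with limma-voom (0.0842) and deep libraries (0.73), miR-99b-3p with library totals (0.0598), the block (0.0421) and a depth term (0.0726), let-7e-5p with library totals (0.0138) and miR-99b-5p in shallow libraries (0.12). The interaction of miR-125a-5p was 0.0357 in deep libraries. With each library left out, miR-99b-3p ran from -0.80 to 0.56 in clean mice. Averaged dirty against clean values ran from -0.66 to 0.30 (miR-125a-3p), -0.0858 to 0.216 (miR-99b-5p) and -0.0185 to 0.705 (miR-99b-3p). In VM cells they ran from -0.62 to 0.44 (miR-99b-3p), -0.435 to 0.0819 (miR-99b-5p), -1.75 to 0.0850 (miR-125a-3p), -0.00586 to 0.354 (miR-125a-5p) and -0.423 to 0.0119 (let-7e-5p). Ratios in dirty against clean mice ran from -0.0647 to 0.319 (miR-125a-5p over let-7e-5p), the miR-125a-5p share from -2.52 to 3.76 points and the miR-99b-5p share from -1.60 to 5.64 points. In VM against TN cells miR-125a-5p over its 3p arm ran from -0.39 to 0.40 and let-7e-5p over its 3p arm from -0.0245 to 0.961. Fits on the shallow or deep libraries, or without a Clean_TN library, leave some groups with 1 library, which is assumed to vary like the others. The 3p arms had 0 to 52 counts per library and the 5p arms 162 to 3687, and what depth added to these differences was not tested.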

Other observations

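Summed over seed relatives, miR-99a-5p, miR-99b-5p and miR-100-5p stood at 278.5 ± 31.8 CPM in Clean_TN (SD, n = 2), 205.9 ± 67.3 in Clean_VM, 347 ± 52.1 in Dirty_TN and 199 ± 50.1 in Dirty_VM (n = 3 each). miR-125a-5p, miR-125b-5p and miR-351-5p together stood at 266 ± 74.0, 96.5 ± 17.4, 391.5 ± 124 and 114 ± 11.3 CPM in the same order. The lowest TN library held 213.9 CPM of the miR-125 sum and the highest VM library 126.8 CPM, while the miR-99 sums overlapped in clean mice (256 to 300.9 CPM in Clean_TN, 135 to 268.8 in Clean_VM) and not in dirty mice (298.9 to 402.4 in Dirty_TN, 141.4 to 233.5 in Dirty_VM). These sums were chosen after the values were seen and were not tested. miR-125b-5p entered the miR-125 sums by the more abundant of its 2 hairpin rows, so these sums may be too low. With miR-351-5p added to the miR-125 counts, an alternative also chosen after seeing the data, the share of miR-125a-5p differed by -22.6 points between VM and TN cells, against -23.3 without it.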
